A study of Mus musculus with 24 samples.

Results

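Msmp, Penk, Ecrg4, Agtr2, Egfl6 and Sned1 are 6 of the 17094 genes measured by mRNA sequencing in mouse primary chondrocytes, the cells that make cartilage matrix. Their products are secreted, apart from Agtr2, which is a cell surface receptor. The 6 genes were chosen by name for a steep loss under IL-1β or in co-culture at 36 h, so their levels at 36 h are given as a description, without a test. The choice set no numerical threshold, and genes left out could show a like loss. Scara5, for example, had a mean of 20.1 FPKM in untreated normal culture at 36 h. Its means at 36 h were 0.51 FPKM in normal culture with IL-1β and 9.69 FPKM in untreated co-culture.

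The chondrocytes came from wild-type mice and filled the lower chamber of transwell dishes, in which a porous membrane separates cell populations that share medium. They were kept alone (normal culture) or together with primary dermal fibroblasts of the mouse skin (co-culture), which were not sequenced here. Interleukin-1β (IL-1β), an inflammatory cytokine, was given at 10 ng/ml starting 24 h after the cells had attached, or was left out, and RNA was taken 36 h or 72 h after that point. The 8 groups were thus normal culture without IL-1β, normal culture with IL-1β, co-culture without IL-1β and co-culture with IL-1β, each at 36 h and at 72 h. Each group had 3 libraries, 24 in all. The sources used here do not give the age and sex of the mice, or say whether the 3 libraries of a group came from separate mice or cultures. The p-values therefore measure only the spread between these libraries, which may be technical. The medium of the co-cultures was also not given, so medium and the presence of fibroblasts cannot be told apart.

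IL-1β acts through its receptor on NF-κB and MAP kinase pathways, and in chondrocytes it is known to lower cartilage matrix genes and to raise proteases and chemokines. Msmp encodes microseminoprotein, prostate associated, a small secreted protein described as a ligand of the chemokine receptor CCR2. Penk encodes proenkephalin, from which proteases cut the enkephalins, peptides that act on opioid receptors. Ecrg4 encodes augurin, a secreted peptide precursor known from cartilage and other tissues and described as a ligand of innate immune and scavenger receptors. Agtr2 encodes the angiotensin II type 2 receptor, which is abundant in fetal mesenchyme and often opposes the type 1 receptor. Egfl6 encodes a secreted matrix protein with EGF repeats, a MAM domain and an RGD integrin-binding motif. Sned1 encodes a matrix glycoprotein with a nidogen domain, sushi and EGF-like repeats and integrin-binding motifs.

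Levels are FPKM, fragments scaled by gene length and by the mapped fragments of the library, so they may be compared between genes. The sums per library were between 438242 and 506621 FPKM with 11335 to 11607 genes reaching 1 FPKM. How many reads each library had is unknown, which leaves counting error without an interval. Of 11 chondrocyte markers, all were in the table and their summed level was between 287.85 and 1141.07 FPKM per library. Col2a1, type II collagen, was between 112.18 and 803.64 FPKM and Sox9, the chondrocyte transcription factor, between 4.94 and 30.92 FPKM. The cartilage genes Matn1 and Snorc were at most 0.07 and 0.19 FPKM and were listed at 0 in 13 and 16 libraries. The summed ranges of the other marker lists were 48.2 to 144 FPKM for macrophages, 4.04 to 6.47 for endothelium, 35.9 to 261 for skeletal muscle, 19.7 to 37.2 for pericytes and smooth muscle, 15.6 to 29.2 for neurons and glia, 19.0 to 45.5 for osteoblasts and 1.31 to 4.12 for keratinocytes. In bulk samples such as these, fewer cells of a type and less RNA per cell cannot be told apart.

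All 6 genes are protein-coding. In build GRCm38 (GENCODE vM21), Msmp (ENSMUSG00000078719) spans chr4:43583216-43584494 on the minus strand with 3 exons. Penk (ENSMUSG00000045573) spans chr4:4133531-4138819 on the minus strand with 2 exons. Msmp and Penk thus share a chromosome but are far apart on it. Ecrg4 (ENSMUSG00000026051) spans chr1:43730602-43742578 on the plus strand with 4 exons. Agtr2 (ENSMUSG00000068122) spans chrX:21484544-21489164 on the plus strand with 3 exons. Egfl6 (ENSMUSG00000000402) spans chrX:166523007-166585720 on the minus strand with 12 exons, so that Agtr2 and Egfl6 are both X-linked. Sned1 (ENSMUSG00000047793) spans chr1:93235841-93301065 on the plus strand with 31 exons. Exon numbers are those of the principal transcript.

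The counting was not stated to use strand, and 4 of the 6 genes meet a gene on the opposite strand. Msmp lies inside Rgp1 (chr4:43578715-43587487, plus strand), within its last exon. Rgp1 had group means between 7.26 and 9.52 FPKM, and it was at 7.26 FPKM in the group where all 3 libraries listed Msmp at 0. The 3′ end of Sned1 overlaps Mterf4, whose group means were between 6.77 and 9.02 FPKM. Penk and Ecrg4 meet the noncoding genes A830012C17Rik and Gm29155, which were not analysed here. Reads from such partners cannot be told apart without strand.

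Among these genes, Ecrg4 with Sned1 and Agtr2 with Egfl6 are pairs whose levels moved alike over the 24 libraries (r = 0.97 and r = 0.96), so the bases in front of their starts are shown. They are the bases up to 250 before the RefSeq start that lie in no GENCODE exon, read 5′ to 3′ on the gene's strand from RefSeq on GRCm38.p6, with matches to a searched motif in capitals. A start in RefSeq was found for 5 of the 6 genes. Penk was not matched. The window before Msmp lies wholly in the last exon of Rgp1 and is not printed.
Ecrg4, chr1:43730352-43730601, plus strand: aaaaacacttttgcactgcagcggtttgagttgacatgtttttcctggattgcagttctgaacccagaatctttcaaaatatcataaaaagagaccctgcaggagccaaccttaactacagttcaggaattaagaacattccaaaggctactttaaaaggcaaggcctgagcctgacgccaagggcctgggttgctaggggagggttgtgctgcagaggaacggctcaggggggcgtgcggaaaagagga
Sned1, chr1:93235647-93235840, plus strand: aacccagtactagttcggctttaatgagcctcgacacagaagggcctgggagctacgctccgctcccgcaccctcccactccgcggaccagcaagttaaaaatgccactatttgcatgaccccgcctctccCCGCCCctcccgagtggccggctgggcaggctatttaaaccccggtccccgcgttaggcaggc
Agtr2, chrX:21484374-21484543, plus strand: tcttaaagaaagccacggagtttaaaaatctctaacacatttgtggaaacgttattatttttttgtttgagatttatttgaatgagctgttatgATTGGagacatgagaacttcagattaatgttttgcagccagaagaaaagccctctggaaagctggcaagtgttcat
Egfl6, chrX:166585721-166585966, minus strand: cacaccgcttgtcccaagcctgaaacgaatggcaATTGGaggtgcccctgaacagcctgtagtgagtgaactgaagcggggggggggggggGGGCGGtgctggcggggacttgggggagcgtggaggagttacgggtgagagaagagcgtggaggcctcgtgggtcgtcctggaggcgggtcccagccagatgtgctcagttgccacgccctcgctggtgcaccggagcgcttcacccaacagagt

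In the 250 bases before the RefSeq start, 8 motifs were searched on both strands, with the share of 32526 mouse promoter windows of that length holding each. They were the NF-κB motif (7.28% of windows), the AP-1 motif TGANTCA (6.73%), the cyclic AMP response element TGACGTCA (1.56%), the TATA box TATAAA (12.3%), the C/EBP motif TTGCNNAA (9.57%), the SOX motif AACAAT (9.35%), the GC box GGGCGG (33.0%) and the CCAAT box (33.8%). Agtr2 held a CCAAT box on the opposite strand, 156 to 152 bases before its start. Egfl6 held a GC box 159 to 154 bases and an opposite-strand CCAAT box 216 to 212 bases before its start. Sned1 held a GC box on the opposite strand, 119 to 114 bases before its start. None of the 8 motifs had a match in the windows of Msmp and Ecrg4, which says only that these letters were not there. The G and C content was 62.8% in Msmp, 48.4% in Ecrg4, 38.4% in Agtr2, 64.8% in Egfl6 and 64.0% in Sned1, beside a mean of 53.3% over all windows. The capitals mark matches, not sites.

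Of the secreted peptides, Msmp had the clearest loss under IL-1β. At 36 h its libraries were at 51.69, 45.58 and 42.74 FPKM in untreated normal culture and at 0, 0.36 and 0.65 FPKM with IL-1β. In co-culture at 36 h they were at 18.72, 20.56 and 19.93 FPKM without IL-1β and at 0.46, 0.21 and 0 FPKM with it. Every untreated library was thus above every treated one, and the untreated co-culture lay below untreated normal culture, at 42.3% of its mean. At 72 h the libraries were at 6.62, 5.5 and 4.62 FPKM in untreated normal culture and at 0.89, 0 and 0 FPKM with IL-1β. In co-culture at 72 h they were at 4.16, 3.29 and 3.53 FPKM without IL-1β and listed at 0 in all 3 libraries with it. Msmp was listed at 0 in 7 of 24 libraries, all of them given IL-1β, and the untreated level at 72 h was 12.0% of that at 36 h in normal culture.

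Msmp reached 1 FPKM in only the 12 untreated libraries. It entered the fit through these alone, so its call is not counted as support for any statement on the 6 genes. Tested with limma on log2(FPKM + 1) at 72 h, Msmp fell with IL-1β in normal culture (log2 difference -2.40, 95% interval -2.80 to -2.00, adjusted p = 4.07e-10) and in co-culture (-2.22, -2.62 to -1.81, adjusted p = 2.19e-09). With libraries at 0, the size of these differences is set by the pseudocount and is no bound: with 0.1 in place of 1 they were -4.71 and -5.23. In order of level, the 4 untreated groups stood apart from each other, normal culture above co-culture and 36 h above 72 h, while the ranges of the 4 IL-1β groups overlapped.

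Penk had the highest level of the 6 genes and behaved unlike the others at 72 h. At 36 h its libraries were at 377.21, 315.84 and 307.72 FPKM in untreated normal culture and at 48.33, 41.84 and 48.88 FPKM with IL-1β. In co-culture at 36 h they were at 198.71, 197.41 and 211.52 FPKM without IL-1β and at 22.55, 23.3 and 24.31 FPKM with it. The mean with IL-1β was 13.9% of that without it in normal culture and 11.5% in co-culture, and none of these 4 groups overlapped. At 72 h Penk was at 72.14, 48.3 and 57.06 FPKM in untreated normal culture and at 92.45, 49.2 and 58.78 FPKM with IL-1β. Its co-culture libraries at 72 h were at 48.94, 35.56 and 50.93 FPKM without IL-1β and at 35.92, 36.82 and 39.43 FPKM with it. Treated and untreated libraries overlapped in both cultures at this time. The mean ± SD was 59.2 ± 12.1 FPKM untreated and 66.8 ± 22.7 FPKM with IL-1β in normal culture (SD, n = 3).

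No change of Penk with IL-1β at 72 h passed the limma test in normal culture (log2 difference 0.14, 95% interval -0.20 to 0.48, adjusted p = 0.468) or in co-culture (-0.25, -0.59 to 0.09, adjusted p = 0.217). Between 36 h and 72 h the untreated mean went to 17.7% in normal culture and 22.3% in co-culture. Over the same time the mean with IL-1β went to 144% in normal culture and 160% in co-culture, with no overlap between the times. In order of level, untreated normal culture and untreated co-culture at 36 h stood first and apart, the next 5 groups overlapped from neighbour to neighbour, and IL-1β co-culture at 36 h was lowest and apart.

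Ecrg4 was low with IL-1β at both times. At 36 h its libraries were at 146.01, 130.71 and 123.75 FPKM in untreated normal culture and at 10.58, 8.11 and 8.62 FPKM with IL-1β. In co-culture at 36 h they were at 82.93, 90.5 and 83.57 FPKM without IL-1β and at 7.99, 7.87 and 9.1 FPKM with it. Co-culture lay below normal culture without IL-1β, at 64.2% of the mean, whereas the IL-1β groups of both cultures overlapped. At 72 h Ecrg4 was at 39.26, 28.74 and 36.93 FPKM in untreated normal culture and at 6.57, 4.07 and 5.03 FPKM with IL-1β. The 72 h co-culture libraries were at 42.21, 27.05 and 37.48 FPKM without IL-1β and at 7.94, 5.57 and 7.12 FPKM with it. At 72 h untreated libraries were again above all treated ones, and both cultures overlapped at each IL-1β setting. Ecrg4 fell with IL-1β at 72 h in normal culture (limma log2 difference -2.54, 95% interval -2.85 to -2.22, adjusted p = 2.15e-12) and in co-culture (-2.20, -2.52 to -1.89, adjusted p = 3.57e-11). These ranked 18 and 20 from the lowest of 12178 tested genes. The levels fell into 3 tiers that stood apart: untreated at 36 h with both cultures distinct, untreated at 72 h, and the 4 IL-1β groups.

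The receptor gene Agtr2 was low both with IL-1β and in untreated co-culture at 36 h. At 36 h its libraries were at 42.01, 41.6 and 42.82 FPKM in untreated normal culture and at 9.75, 7.47 and 8.54 FPKM with IL-1β. In co-culture at 36 h they were at 14.21, 14.07 and 13.64 FPKM without IL-1β and at 4.8, 4.84 and 5.59 FPKM with it. These 4 groups did not overlap, and untreated co-culture was at 33.2% of untreated normal culture, the lowest such share of the 6 genes. At 72 h Agtr2 was at 4.9, 3.35 and 4.12 FPKM in untreated normal culture and at 1.39, 1.03 and 0.7 FPKM with IL-1β. Co-cultured cells at 72 h were at 3.33, 2.64 and 3.45 FPKM without IL-1β and at 1.39, 0.82 and 0.93 FPKM with it. Every IL-1β library at 72 h was below every untreated one, and both cultures overlapped at each IL-1β setting. Agtr2 fell with IL-1β at 72 h in normal culture (limma log2 difference -1.33, 95% interval -1.58 to -1.08, adjusted p = 3.37e-09) and in co-culture (-1.02, -1.27 to -0.77, adjusted p = 3.2e-07). In order of level the 4 groups at 36 h came first. The lowest of them, co-culture with IL-1β, overlapped untreated normal culture at 72 h, which in turn overlapped untreated co-culture at 72 h, and the IL-1β groups at 72 h came last and overlapped each other.

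Of the matrix genes, Egfl6 had the smallest IL-1β difference at 36 h. At 36 h its libraries were at 19.85, 20.66 and 19.35 FPKM in untreated normal culture and at 9.63, 9.14 and 8.2 FPKM with IL-1β. In co-culture at 36 h they were at 8.41, 7.12 and 8.23 FPKM without IL-1β and at 6.26, 6.57 and 6.54 FPKM with it. Untreated normal culture stood apart and above, and untreated co-culture overlapped normal culture with IL-1β. At 72 h Egfl6 was at 2.7, 1.83 and 2.17 FPKM in untreated normal culture and at 1.04, 0.45 and 0.52 FPKM with IL-1β. In co-culture at 72 h it was at 2.65, 2 and 2.5 FPKM without IL-1β and at 0.99, 0.68 and 0.92 FPKM with it. All 12 libraries at 36 h were above all 12 at 72 h, and at 72 h the untreated libraries were above the treated ones. Egfl6 fell with IL-1β at 72 h in normal culture (limma log2 difference -0.96, 95% interval -1.19 to -0.73, adjusted p = 1.3e-07) and in co-culture (-0.86, -1.09 to -0.63, adjusted p = 1.05e-06). At these low levels the pseudocount compresses the difference: the means were 2.23 ± 0.438 FPKM untreated and 0.670 ± 0.322 FPKM with IL-1β in normal culture (SD, n = 3), the latter 30.0% of the former.

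Sned1 was between 8.15 and 12.2 FPKM in all 12 libraries given IL-1β. At 36 h its libraries were at 114, 121.95 and 123.39 FPKM in untreated normal culture and at 11.93, 10.15 and 12.2 FPKM with IL-1β. In co-culture at 36 h they were at 50.47, 50.34 and 53.4 FPKM without IL-1β and at 9.5, 9.81 and 9.85 FPKM with it. Untreated co-culture was at 42.9% of untreated normal culture, with no overlap. At 72 h Sned1 was at 45.4, 36.24 and 37.25 FPKM in untreated normal culture and at 11.05, 10.69 and 8.15 FPKM with IL-1β. In co-culture at 72 h it was at 26.99, 25.74 and 29.18 FPKM without IL-1β and at 11.31, 9.63 and 8.42 FPKM with it. The 4 untreated groups stood apart from each other and the 4 IL-1β groups, with means between 9.72 and 11.4 FPKM, overlapped from neighbour to neighbour. Sned1 fell with IL-1β at 72 h in normal culture (limma log2 difference -1.89, 95% interval -2.10 to -1.69, adjusted p = 2.2e-13) and in co-culture (-1.40, -1.61 to -1.19, adjusted p = 6.71e-11).

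**Figure D1:**
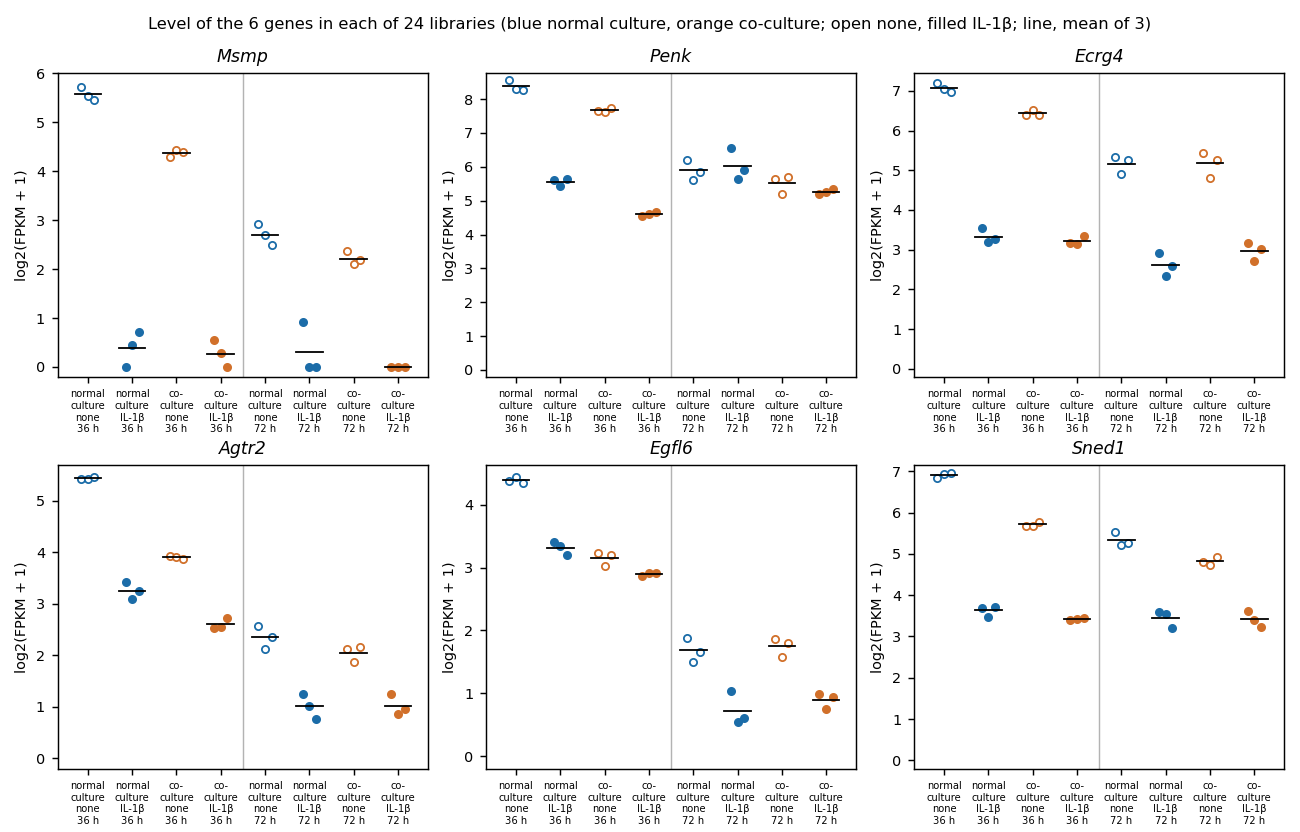
Level of each gene in the 24 libraries as log2(FPKM + 1), in a panel per gene with the 8 groups along the horizontal axis. Points are libraries, open without and filled with IL-1β, blue for normal culture and orange for co-culture, and lines are means of 3. At 36 h the IL-1β libraries lie below the untreated ones of the same culture for each gene. At 72 h they do so for each but Penk, which was between 35.56 and 92.45 FPKM in all 4 groups at that time. At 36 h the same held for 44.9% of all tested genes in normal culture and 42.3% in co-culture. That share was not counted at 72 h.

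The IL-1β effect at 72 h was measured in libraries other than those at 36 h, although the 6 genes were chosen with the results of all libraries known. With Msmp set aside, 4 of the other 5 genes fell with IL-1β in normal culture at 72 h and the same 4 (Ecrg4, Agtr2, Egfl6 and Sned1) fell in co-culture. In the same fit, 40.3% of the 12178 tested genes were called lower in normal culture and 30.6% in co-culture, so a lower call by itself was common. The median log2 difference of these 5 genes, which were chosen for a loss under IL-1β or in co-culture, was -1.33 in normal culture and -1.02 in co-culture, beside -0.08 and -0.06 for all tested genes. By rank from the lowest of all tested genes in normal culture, Ecrg4 was 18, Sned1 42, Agtr2 108 and Egfl6 261, whereas Penk was 9136. Both IL-1β comparisons kept the calls of these 4 genes when each library was left out in turn. Marker sums also differed with IL-1β in normal culture at 72 h. The chondrocyte sum was between 1074.09 and 1141.07 FPKM untreated and between 293.18 and 302.23 FPKM with IL-1β, the skeletal muscle sum between 35.9 and 42.88 and between 76.64 and 85.93 FPKM, and the macrophage sum between 95.77 and 102.19 and between 119.48 and 135.04 FPKM. In co-culture at 72 h the chondrocyte sum was between 1045.17 and 1111.22 FPKM untreated and between 287.85 and 331.61 FPKM with IL-1β. The part of these lists in the result was not tested.

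At 36 h, by which the genes were chosen, the IL-1β libraries were below the untreated ones without overlap for 6 of 6 genes in each culture, where the same held for 44.9% of all tested genes in normal culture and 42.3% in co-culture. The log2 differences in normal culture were -5.18 for Msmp, -3.74 for Ecrg4, -3.28 for Sned1, -2.82 for Penk, -2.18 for Agtr2 and -1.07 for Egfl6. In co-culture they were -4.10 for Msmp, -3.22 for Ecrg4, -3.06 for Penk, -2.29 for Sned1, -1.30 for Agtr2 and -0.26 for Egfl6. Agtr2 and Egfl6, the genes with the smallest IL-1β differences, thus stood last in both cultures.

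**Figure D2:**
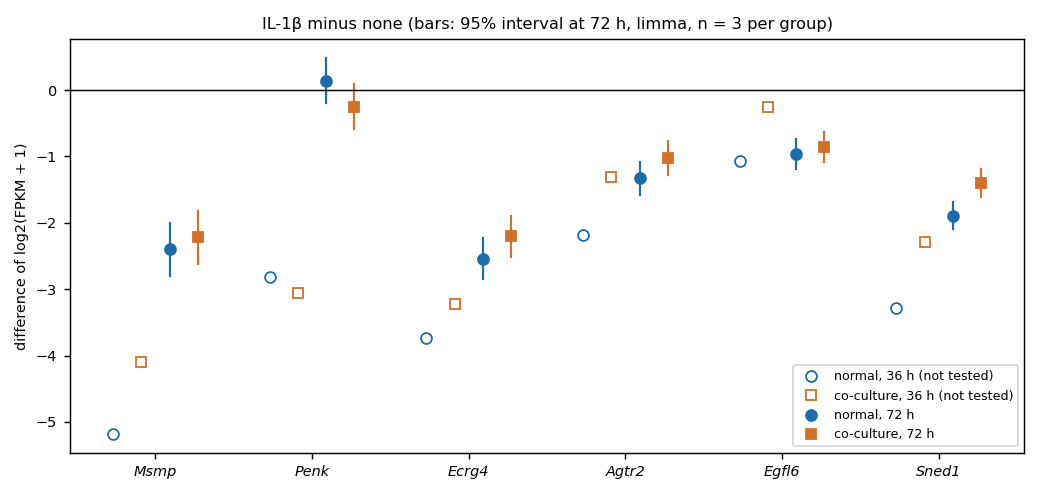
Difference of log2(FPKM + 1) between IL-1β and no IL-1β for each gene, by culture and time. The bars at 72 h are 95% intervals from the limma fit, and the points at 36 h carry none because they chose the genes. Only the 72 h intervals of Penk include 0. Those of Msmp are not counted as support, because it entered the fit through its untreated libraries alone and the pseudocount sets their size.

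Co-culture without IL-1β was the other setting by which the genes were chosen at 36 h, and it shares its untreated normal libraries with the IL-1β comparison. The untreated co-culture libraries at 36 h were below those of normal culture without overlap for 6 of 6 genes, where the same held for 26.3% of all tested genes. The log2 differences were -1.53 for Agtr2, -1.23 for Egfl6, -1.20 for Msmp, -1.20 for Sned1, -0.71 for Penk and -0.63 for Ecrg4. With IL-1β present at 36 h, 4 of 6 genes were lower in co-culture without overlap, beside 15.2% of all tested genes by the same measure. Those differences were -0.95 for Penk, -0.65 for Agtr2, -0.42 for Egfl6 and -0.21 for Sned1, and the ranges of Msmp and Ecrg4 overlapped.

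Dermal fibroblast markers were already present in chondrocytes kept alone. The summed level of 9 such markers was between 264.92 and 275.62 FPKM in untreated normal culture at 36 h and between 228.06 and 229.49 FPKM in untreated co-culture, and 8 of 9 had a mean of at least 1 FPKM in both. Under IL-1β at 36 h the sum was between 204.54 and 216.42 FPKM in normal culture and between 207.41 and 210.18 FPKM in co-culture. At 36 h the sum was thus lower with IL-1β and in untreated co-culture, as the 6 genes were. The chondrocyte marker sum was between 784.56 and 816.24 FPKM in untreated normal culture at 36 h, between 863.09 and 889.62 FPKM in untreated co-culture and between 301.5 and 319.25 FPKM in normal culture with IL-1β. The part of either marker list in the results was not tested.

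At 72 h the cultures were compared by the limma test. The 36 h counts rest on overlap and on genes chosen there, so they cannot be set against these. Over all tested genes, 9.2% were called lower in untreated co-culture at 36 h and 1.68% at 72 h. Without IL-1β, Sned1 fell in co-culture (limma log2 difference -0.52, 95% interval -0.72 to -0.31, adjusted p = 0.00458), as 1 of 6 genes called lower where 1.68% of all tested genes were. Its mean was 39.6 ± 5.02 FPKM in normal culture and 27.3 ± 1.74 FPKM in co-culture (SD, n = 3), with no overlap. Msmp, with the libraries of both cultures also apart, had a difference of -0.49 (95% interval -0.89 to -0.09) and did not pass (adjusted p = 0.166), but passed with only these groups in the fit (adjusted p = 0.0164). The differences of Penk (-0.38, adjusted p = 0.203) and Agtr2 (-0.30, adjusted p = 0.174) did not pass the limma test. Those of Ecrg4 (0.01, 95% interval -0.30 to 0.33) and Egfl6 (0.07, -0.16 to 0.30) did not pass either. Dermal fibroblast markers summed to between 200.66 and 222.43 FPKM in normal culture and between 199.18 and 213.53 FPKM in co-culture without IL-1β at 72 h.

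In IL-1β groups at 72 h, Penk fell in co-culture relative to normal culture (limma log2 difference -0.77, 95% interval -1.11 to -0.43, adjusted p = 0.00472), as 1 of 6 genes called lower where 5.26% of all tested genes were and 7.22% were called higher. Its 3 co-culture libraries, at 35.92 to 39.43 FPKM, were below the 3 of normal culture, at 49.2 to 92.45 FPKM. The size of this difference rests in part on replicate 1 of normal culture with IL-1β, the highest library: without it the difference was -0.51 (adjusted p = 0.033), and with replicate 1 of every 72 h group left out it was -0.49 (adjusted p = 0.0608). With only these groups in the fit, limma called 0 genes and Penk had an adjusted p of 0.298. The values so far come from fits that do not pair libraries. Same-numbered libraries deviated together in this comparison, though the labels do not pair them. A fit with the replicate number as a block shares that block over all groups at 72 h. In the other comparisons at 72 h same-numbered libraries did not all deviate together, so the block values are given as an alternative. With the replicate number as a block the limma adjusted p of Penk was 0.000906. Under that block Ecrg4 was higher in co-culture (log2 difference 0.35, adjusted p = 0.00648), a difference that did not pass without it (adjusted p = 0.137). The differences of Msmp (-0.31), Agtr2 (0.01), Egfl6 (0.17) and Sned1 (-0.02) did not pass, and their 95% intervals lay between -0.71 and 0.40.

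Whether co-culture altered the IL-1β effect at 72 h was tested as an interaction. By limma 0 of 6 genes passed, 1 had an unadjusted p under 0.05, and of all tested genes 3.11% were called in either direction and 1.68% higher. That gene was Sned1, whose IL-1β loss was smaller in co-culture by 0.49 on the log2 scale (limma, 95% interval 0.20 to 0.79, adjusted p = 0.0562). Over the alternatives its adjusted p was between 0.0169 and 0.241, the highest with only the 72 h groups in the fit, and over the fits without 1 library between 0.0169 and 0.153. It passed with a filter at 5 FPKM in place of 1 (adjusted p = 0.0458), and without replicate 1 or 2 of normal culture with IL-1β or replicate 3 of co-culture with IL-1β (adjusted p = 0.031, 0.0269 and 0.0169). The interactions of Penk (-0.39, 95% interval -0.87 to 0.09) and Agtr2 (0.31, -0.05 to 0.67) did not pass and their intervals are wide. At 36 h the same term, given as a description, was 1.08 for Msmp, 1.00 for Sned1, 0.87 for Agtr2, 0.82 for Egfl6, 0.52 for Ecrg4 and -0.24 for Penk. For Msmp the term depends on the untreated levels and the pseudocount, as its IL-1β libraries at 36 h were at 0 to 0.65 FPKM. At 72 h the Msmp interaction was between -0.52 and 0.49 over the alternatives.

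**Figure D3:**
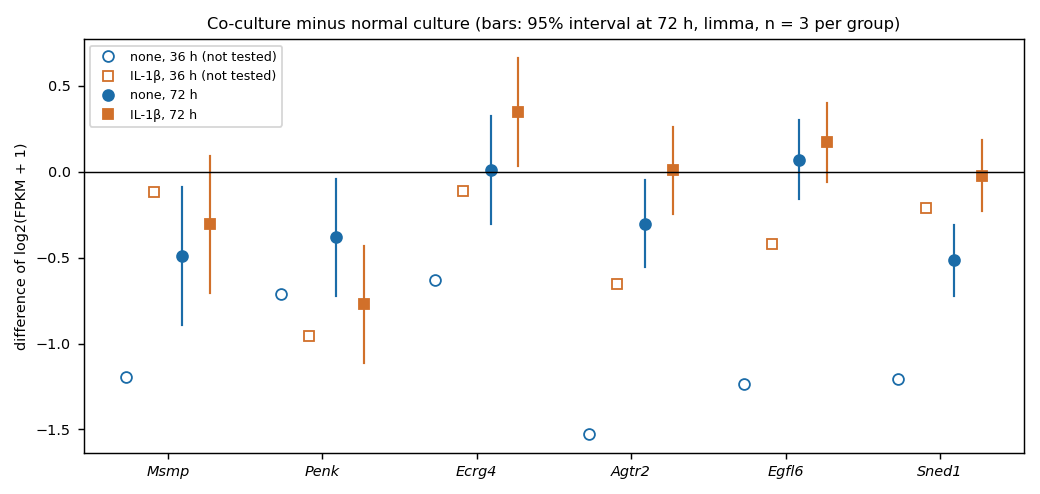
Difference of log2(FPKM + 1) between co-culture and normal culture for each gene, without and with IL-1β, at 36 h and 72 h. The bars at 72 h are 95% intervals from the limma fit, before adjustment over all genes. Sned1 without IL-1β (-0.52) and Penk with IL-1β (-0.77) passed the adjusted test at 72 h in this fit, which pairs no libraries. With the replicate number as a block, Ecrg4 with IL-1β (0.35) also passed.

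The 72 h levels are set beside those at 36 h as a description, because the 36 h libraries chose the genes. The untreated level at 72 h as a share of that at 36 h was lowest for Agtr2 in normal culture, at 9.78%, then 11.2% for Egfl6, 12.0% for Msmp, 17.7% for Penk, 26.2% for Ecrg4 and 33.1% for Sned1. All 6 genes were lower at 72 h without overlap in both cultures, where the same held for 29.8% of all tested genes in normal culture and 30.5% in co-culture. Under IL-1β in normal culture, Agtr2 went to 12.1% and Egfl6 to 7.45% of the 36 h level, Ecrg4 to 57.4%, and Sned1 to 87.2% with overlapping ranges. Without overlap, 3 of 6 genes were lower and 1 higher in that comparison, beside 29.8% and 34.9% of all tested genes by the same measure, and in co-culture 2 were lower and 1 higher, beside 30.9% and 36.7%. In normal culture the share left for Agtr2 and Egfl6 was thus near that in untreated cells, for Sned1 it was not, and for Penk the level was higher. In co-culture the shares without and with IL-1β were 22.5% and 20.6% for Agtr2 and 30.1% and 13.4% for Egfl6. For Sned1 they were 53.1% and 101%. In untreated normal culture, the chondrocyte marker sum was between 784.56 and 816.24 FPKM at 36 h and higher at 72 h, between 1074.09 and 1141.07 FPKM. The skeletal muscle marker sum was between 209.24 and 237.68 FPKM at 36 h and between 35.9 and 42.88 FPKM at 72 h. The macrophage sum was between 49.14 and 58.35 and between 95.77 and 102.19 FPKM, and the dermal fibroblast sum between 264.92 and 275.62 and between 200.66 and 222.43 FPKM. Their part in the levels of the 6 genes was not tested.

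Over the 24 libraries the genes formed 2 sets by likeness, given as Pearson's r of log2(FPKM + 1) without a test because libraries of a group share their treatment. Msmp, Ecrg4 and Sned1 had r between 0.97 and 0.98 with each other, and Agtr2 and Egfl6 had r = 0.96. Between the sets r was 0.80, 0.79 and 0.78 for Agtr2 with Msmp, Ecrg4 and Sned1, and 0.61, 0.62 and 0.59 for Egfl6 with these, and Penk was nearest to Msmp (r = 0.89). Among 9204 genes compared, the genes most like Msmp were Scara5 (r = 0.99), Ptn (0.98) and Angptl1 (0.98). Among those most like Ecrg4 were Fbln7 (0.99) and Cnmd (0.99), and those most like Sned1 were Scara5 (0.98), Angptl1 (0.98) and Gda (0.98). Those most like Agtr2 were Igf1 (0.99), Pdgfra (0.98) and Angpt1 (0.98), and those most like Egfl6 were Dync2li1 (0.98), Nid2 (0.98) and Rin2 (0.97). Penk had the weakest likeness, with Kng2 (0.94), Foxred2 (0.93) and Kng1 (0.93). As an example, Scara5 went from a mean of 20.1 FPKM to 0.51 FPKM with IL-1β at 36 h, and Pdgfra from 97.2 to 60.6 FPKM.

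The genes that make, receive or break down the products of these 6 were taken from 6 lists, and their counts are given beside the share of all genes called. Of 15 tested angiotensin system genes, 0 rose and 9 fell with IL-1β in normal culture at 36 h, and 2 rose and 10 fell at 72 h. At those times 25.9% and 23.1% of all tested genes rose and 41.5% and 40.3% fell. The median log2 difference of the list was -0.50 at both times, beside -0.09 and -0.08 for all tested genes. Mme, neprilysin, a protease that cuts enkephalins and angiotensins, fell from 78.4 ± 3.73 to 12.3 ± 1.77 FPKM at 36 h and from 25.3 ± 0.668 to 3.50 ± 0.269 FPKM at 72 h (SD, n = 3, limma adjusted p = 1.03e-16 and 1.34e-16). Enpep, the aminopeptidase that acts on angiotensin II, fell by 1.73 and by 0.84 on the log2 scale (limma adjusted p = 2.64e-14 and 9.3e-09). The converting enzyme Ace fell by 0.78 and by 0.50 (limma adjusted p = 2.99e-10 and 5.12e-07). Apln, also in this list, fell by 0.89 at 36 h and rose by 0.77 at 72 h (limma adjusted p = 1.4e-07 and 1.42e-06).

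The type 1 receptor gene Agtr1a did not follow Agtr2 at 72 h. It fell with IL-1β at 36 h, from 15.6 ± 0.199 to 11.8 ± 0.780 FPKM (limma adjusted p = 1.91e-05), and rose at 72 h, from 2.47 ± 0.261 to 4.23 ± 0.293 FPKM (SD, n = 3, limma adjusted p = 4.36e-08). In co-culture at 72 h it also rose, by 0.92 on the log2 scale (limma adjusted p = 3.88e-11). The precursor gene Agt was between 0.36 and 2.29 FPKM over the libraries, and its differences of 0.26 and 0.09 with IL-1β in normal culture did not pass. At 36 h Agt rose with IL-1β in co-culture by 0.60 (limma adjusted p = 0.000224) and fell in untreated co-culture by 0.67 on the log2 scale (limma adjusted p = 0.00048). Agtr1b was at most 0.21 FPKM. Ren1 was not analysed here.

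Of 13 tested opioid system genes, 6 rose and 4 fell with IL-1β in normal culture at 36 h, and 5 rose and 4 fell at 72 h, with Mme and the aminopeptidase Anpep, both also in the angiotensin list, among those that fell. The opioid receptor genes Oprd1 and Oprl1 were at most 0.03 and 0.09 FPKM, and the other opioid precursors Pomc and Pnoc at most 0.64 and 0.11 FPKM. Oprm1, Oprk1 and Pdyn were not analysed here. Ackr3, a scavenger receptor for opioid peptides and chemokines, was at 43.4 ± 0.798 and 45.3 ± 4.88 FPKM without and with IL-1β at 36 h, a difference that did not pass. At 72 h Ackr3 rose from 19.5 ± 0.197 to 51.9 ± 7.48 FPKM (SD, n = 3, limma adjusted p = 3.44e-13). Among the proteases that cut precursors, Pcsk5 rose by 0.41 at 36 h and 0.93 at 72 h on the log2 scale (limma adjusted p = 0.00093 and 3.3e-08).

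Of 11 tested genes for augurin receptors and processing, 7 rose and 2 fell with IL-1β in normal culture at 36 h, and 5 rose and 4 fell at 72 h. Cd14, a co-receptor for lipopolysaccharide, rose from 2.25 ± 0.325 to 7.65 ± 0.533 FPKM at 36 h and from 2.42 ± 0.506 to 15.5 ± 4.88 FPKM at 72 h (SD, n = 3, limma adjusted p = 1.04e-08 and 6.4e-12). Olr1 and Scarf1, scavenger receptor genes, were at most 0.94 and 0.44 FPKM. Of the microseminoprotein and CCR2 ligand list only 3 genes were tested, all CCR2 ligands. Ccl2 and Ccl7, chemokines that bind CCR2, rose by 2.28 and 1.51 at 36 h and by 5.26 and 3.65 at 72 h on the log2 scale, while Msmp fell. Ccl12 fell by 0.67 at 36 h (limma adjusted p = 0.000618) and rose by 0.98 at 72 h (limma adjusted p = 9.75e-06). Ccr2 itself was at most 0.14 FPKM and listed at 0 in 4 libraries.

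Of 17 tested matrix genes with EGF repeats, MAM or nidogen domains, 7 rose and 7 fell with IL-1β in normal culture at 36 h, and 4 rose and 10 fell at 72 h. Megf6 fell at both times, from 12.6 ± 0.492 to 1.82 ± 0.0737 FPKM and from 4.99 ± 0.477 to 1.40 ± 0.0100 FPKM (SD, n = 3, limma adjusted p = 1.74e-17 and 2.74e-13). Edil3 did not pass at 36 h (-0.18, limma adjusted p = 0.144) and fell by 1.43 at 72 h (limma adjusted p = 1.63e-10). Nid2, a basement membrane nidogen, fell by 0.26 and by 0.60 (limma adjusted p = 0.000412 and 5.46e-09). Other genes of this list rose at both times. Mamdc2 rose by 1.36 and 0.13 on the log2 scale (limma adjusted p = 2.62e-15 and 0.0415). Its call at 72 h did not pass after rescaling to TPM (limma adjusted p = 0.654). Mfge8 rose by 0.64 and 0.37 (limma adjusted p = 1.79e-10 and 1.77e-06). Of 9 tested genes for integrins that bind RGD or LDV motifs, 7 rose and 1 fell at 36 h, and 3 rose and 4 fell at 72 h. Itga5 rose by 0.58 and 1.10 and Itgb3 by 0.79 and 0.84 on the log2 scale (limma adjusted p = 7.68e-11, 1.19e-15, 1.04e-06 and 6.05e-07). Itga8, the α8 chain of the integrin described as a receptor for Egfl6, was between 0.48 and 1.5 FPKM over the libraries.

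With IL-1β in co-culture the counts were close to these. In the angiotensin list 1 rose and 9 fell at 36 h and 2 rose and 10 fell at 72 h, and in the opioid list 6 rose and 3 fell, then 5 rose and 4 fell. In the augurin list 7 rose and 2 fell at 36 h and 5 rose and 3 fell at 72 h. In the matrix list 6 rose and 6 fell, then 3 rose and 11 fell, and in the integrin list 6 rose and 1 fell, then 3 rose and 3 fell. Of the 3 CCR2 ligands 2 rose and 1 fell at 36 h and 3 rose at 72 h. Of all tested genes, 23.4% rose and 35.3% fell at 36 h, and 18.5% rose and 30.6% fell at 72 h.

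Untreated co-culture was compared with untreated normal culture for the same lists. At 36 h, 4 angiotensin system genes fell and 2 rose, and 3 opioid system genes fell and 0 rose, where 9.2% and 6.28% of all tested genes fell and rose. In the matrix list 1 rose and 5 fell, in the augurin list 3 rose and 3 fell, in the integrin list 1 rose and 2 fell, and of the CCR2 ligands 1 fell. Mme fell in untreated co-culture by 0.71 at 36 h (limma adjusted p = 5.77e-06) and by 0.37 at 72 h (limma adjusted p = 0.0236). Agtr1a fell by 0.44 and Enpep by 0.76 at 36 h (limma adjusted p = 3.85e-05 and 6.96e-07). At 72 h, Mme was the 1 gene called lower in the angiotensin and opioid lists and none was called higher, where 1.68% of all tested genes fell and 1.72% rose. In the matrix list Efemp1 and Npnt were called lower and Megf6 and Egfl7 higher, in the augurin list Pcsk6 was called higher, and none of the integrins or CCR2 ligands was called. The higher calls of Megf6, Egfl7 and Pcsk6 did not pass after rescaling to TPM (limma adjusted p = 0.0892, 0.0506 and 0.139).

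In co-culture with IL-1β at 72 h, against normal culture with IL-1β, 7.22% of all tested genes were called higher and 5.26% lower. In the angiotensin list 2 genes were called higher and 0 lower, and in the opioid list 1 higher and 1 lower. In the augurin list 1 was called higher and 2 lower, in the matrix list 1 higher and 2 lower, in the integrin list 1 lower and of the CCR2 ligands 1 lower. None of these calls held with only these groups in the fit, where limma called 0 genes.

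**Figure D4:**
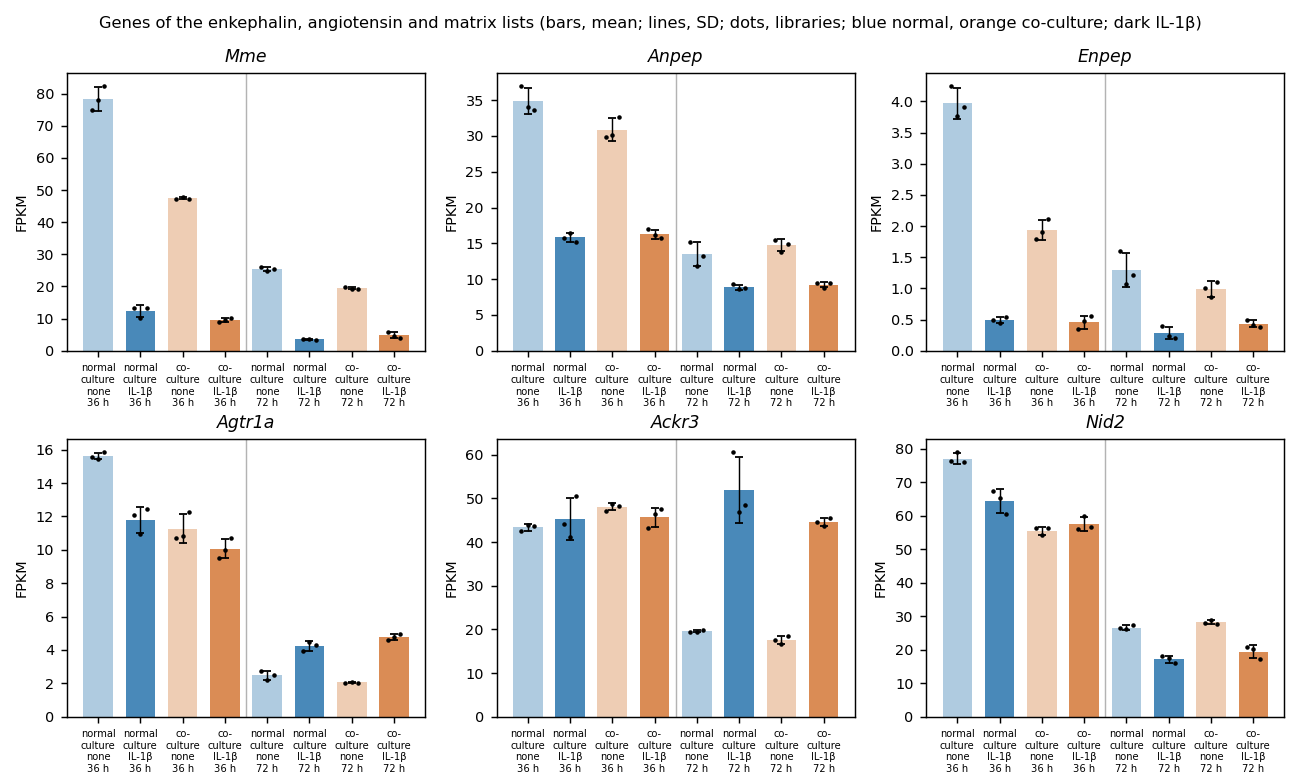
FPKM (linear axis from 0) of Mme, Anpep, Enpep, Agtr1a, Ackr3 and Nid2, genes of the angiotensin, opioid and matrix lists, by group. Bars are means of 3 libraries, lines their SD and dots the libraries. Mme is lower in each IL-1β group than in its untreated partner, whereas Agtr1a is lower with IL-1β at 36 h in normal culture and higher at 72 h in both cultures.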

How the data were processed

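The authors deposited 1 table of FPKM for 17094 genes and 24 libraries of poly(A) mRNA, rounded to 2 decimals, on build GRCm38 per the submitters' processing notes. The sources used here give no aligner, counter, annotation or strand setting. Depth was not recovered. As a trial, 13611 low values (887 genes) were divided by their gene's smallest value above 0 over the libraries. Of the quotients, 10.3% came within 0.05 of a whole number, beside 10% by chance. The smallest value could come from a library of another depth, and genes with still smaller values above 0 were left out. The trial therefore cannot decide whether depth is recoverable.

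Genes at 1 FPKM or more in at least 3 libraries, 12178 in all, were fitted on log2(FPKM + 1) by limma 3.58.1 (R 4.3.3, trended prior) as 8 group means over 24 libraries with 16 residual degrees of freedom. Calls are adjusted p-values under 0.05, by Benjamini-Hochberg over all tested genes. Fold changes on this scale understate the change of low genes. No test was made of the 6 genes at 36 h or between times. The 6 genes, the gene lists and the tests were chosen with earlier results of these data known. Named genes were the 6, up to 4 called genes with the largest change in each list together with its ligands and receptors, the 3 genes most correlated with each of the 6 (Pearson's r, at least 5 FPKM in the highest group) and marker genes. The text prints a selection of these, and some are not reported here.

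Alternatives were log2(FPKM + 0.1), no filter, a filter at 5 FPKM, rescaling to TPM, median-of-ratios scaling, a replicate block within each time, a fit of the compared groups only, leaving out each library and, chosen after seeing the data, leaving out replicate 1 of every 72 h group. Same-numbered libraries were said to deviate together where the correlation of their deviations was over 0.1 for each number. This held for co-culture against normal culture with IL-1β at 72 h (0.364, 0.179 and 0.577) and for no other comparison of 2 groups at 72 h. The main fit did not pair them, and the labels do not say that they are paired. The replicate block is shared by all groups of a time, so it does not pair the compared groups alone. On simulated data for IL-1β in normal culture at 72 h (12178 genes, 200 changed, 3 draws), 76.7% of genes changed 1.25-fold, 98.0% at 1.5-fold and 100% at 2-fold were called, and 3.93% of calls were false. The simulated noise was independent between libraries. In the measured comparison 40.3% of genes were called lower and 23.1% higher, many more than were changed here. These shares may therefore not hold for the measured data. Figures were drawn with matplotlib 3.10.9.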

Additional observations from a re-analysis of the deposited data

How the results depend on the processing

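Of the log2 differences of the 6 genes at 72 h under the alternatives, 445 kept their direction where called and their side of the threshold, 7 came to pass and 2 no longer passed; 0 called differences reversed. The IL-1β calls of Ecrg4, Agtr2, Egfl6 and Sned1 in each culture held under every alternative run, the leave-one-out fits included. For co-culture against normal culture without IL-1β, the compared groups alone gave 2 genes lower in place of 1 and 1427 calls over all genes in place of 414. The replicate block gave 680 calls, and fits without 1 library gave 153 to 221. For co-culture against normal culture with IL-1β, the compared groups alone gave 0 of the 6 genes and 0 calls in place of 1520, and leaving out replicate 1 of every 72 h group gave 0 of the 6 and 245 calls. The replicate block gave 1 gene higher (Ecrg4), and fits without 1 library gave 592 to 2459 calls. For the interaction, main calls were 379. The compared groups alone gave 14 calls, and the replicate block gave 632 calls with 1 gene higher (Sned1, adjusted p = 0.0242). The filter at 5 FPKM gave 1 gene higher, and leaving out replicate 1 of every 72 h group gave 43 calls. Fits without 1 library gave 0 to 1 gene higher and 106 to 1163 calls. The cause of these shifts was not tested. The replicate block changed no other call of the 6 genes. TPM moved the median of all genes for IL-1β in normal culture at 72 h from -0.08 to -0.20, and the calls of these 4 genes remained. Penk with IL-1β in normal culture at 72 h was between -0.12 and 0.33 over the alternatives and passed under none. List counts were within 1.5 times of the main count in 121 cases and not in 5. The depth is unknown, which limits what can be said of levels near 0, above all of Msmp with IL-1β and of Egfl6 at 72 h.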

Other observations

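Within untreated normal culture at 72 h, replicate 1 was the highest of its 3 libraries for 6 of the 6 genes, and within normal culture with IL-1β at 72 h replicate 1 was again the highest for 6 of 6. Over all 12178 tested genes, replicate 1 was the highest for 37.5% and 36.4% in these groups. In co-culture at 72 h, replicate 1 was the highest for 3 of 6 genes without IL-1β and for 4 of 6 with it, beside 30.9% and 36.3% of all tested genes. Replicate 2 was the lowest for 5 and 3 of 6 genes in normal culture and for 6 and 3 of 6 in co-culture, in the same order, beside 34.2%, 23.9%, 34.1% and 25% of all tested genes. At 36 h no library was the highest of its group for more than 4 of the 6 genes. For Penk this spread was widest in normal culture with IL-1β at 72 h, where replicate 1 was at 92.45 FPKM and the others at 49.2 and 58.78 FPKM.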
